A study of Mus musculus with 16 samples.

Results

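The genes described here make cholesterol and fatty acids, together with the proteins that switch them on through the sterol regulatory element binding proteins (SREBPs). They were taken as a named set of 31 genes, and each symbol matched 1 Ensembl identifier in the count table. The set holds 19 genes of the sterol arm, 7 of the fatty acid arm and 5 SREBP regulators. All 31 passed the filter on low counts, out of 17972 genes tested and 56980 genes in the table. Kidney cortex of male C57Bl/6J mice was profiled by RNA sequencing in 4 groups of 4 samples. All mice carried the floxed Degs1 gene, and all received 3 mg tamoxifen on 5 days from 9 weeks of age. The iGKO mice also carried Rosa26-CreERT2, which removes Degs1 (dihydroceramide desaturase, the last enzyme of de novo ceramide synthesis) in all cell types and not in the kidney alone, and the fl/fl littermates served as their controls. At 12 weeks the mice had bilateral ischaemia-reperfusion injury (IRI) or a sham operation. Per the labels, both renal pedicles were clamped for 28 min unless stated otherwise, and tissue was taken after reperfusion for up to 24 h. The groups are named iGKO IRI, fl/fl IRI, iGKO sham and fl/fl sham, and a library carries its group and replicate number. The labels do not state that each replicate was a separate mouse, so the p-values measure the spread between these samples.

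Cells keep their sterol supply steady through SREBPs, transcription factors that are made as precursors in the membrane of the endoplasmic reticulum. When membrane cholesterol is low, the escort protein Scap carries the precursor to the Golgi, where proteases release the active factor. When cholesterol is plentiful, the Insig proteins hold Scap back. Srebf2 encodes the form that mainly drives the sterol genes, and Srebf1 encodes the forms that mainly drive fatty acid genes. The sterol pathway joins acetyl-CoA units into mevalonate, isoprenoids, squalene and lanosterol, and trims lanosterol to cholesterol. The fatty acid pathway turns acetyl-CoA into palmitate, lengthens it and adds a double bond. Proximal tubule cells of the cortex take up much lipid from outside and burn fatty acids for energy, while white and brown adipocytes make fatty acids at a high rate.

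Total counts ranged from 12704273 to 18816343 per library, and no pair of libraries held identical counts. Degs1 (ENSMUSG00000038633), the targeted gene, stood at 44.7 to 59.8 CPM in iGKO IRI against 88.8 to 133 CPM in fl/fl IRI, and at 40.2 to 71.7 CPM in iGKO sham against 84.0 to 113 CPM in fl/fl sham. CPM is a count divided by the library total and scaled to a common size (counts-per-million, with TMM factors), which evens out differences in library composition. Proximal tubule markers, summed over 14 genes, reached 17155 to 22238 CPM in iGKO IRI, 8946 to 21674 CPM in fl/fl IRI, 23259 to 29993 CPM in iGKO sham and 25797 to 31192 CPM in fl/fl sham. Adrenal cortex markers, which would mark a neighbouring tissue rich in sterols, summed to 20.4 CPM in fl/fl IRI 3 and 3.13 to 8.97 CPM elsewhere. Of them Cyp11b2 had no read in any library, and Cyp11a1 and Cyp11b1 reached at most 0.555 and 0.0559 CPM. Star and Akr1b7 had reads in every library, 23 to 123 and 13 to 173, with the most in fl/fl IRI 3. Several libraries stood apart from their group. In fl/fl IRI 1 the tubular injury marker Havcr1 was at 100.6 CPM, against 710 to 1666 CPM in fl/fl IRI 2 to 4. In iGKO sham 2 Havcr1 was at 125.6 CPM, against 13.2 to 21.7 CPM in the other iGKO sham libraries. All iGKO IRI libraries lay below that value, at 28.0 to 122 CPM. Endothelial and fibroblast markers summed to 4282 CPM in iGKO IRI 2, against 616 to 1371 CPM in the other libraries. In iGKO sham 4 mitochondrially encoded genes took 0.443% of counts, against 2.05% to 6.48% in the other 15 libraries. Adipocyte markers, summed over 10 genes, reached 1546 CPM in iGKO IRI 3 and 872 CPM in fl/fl sham 3, against 20.2 to 258 CPM elsewhere. Results that rest on fl/fl IRI 1, iGKO IRI 3 or fl/fl sham 3 are given with and without them. The other libraries named here enter the ranges over left-out libraries.

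The promoters of 6 members are shown because these genes had the smallest p-values among those that fell after IRI in fl/fl kidneys. Each sequence is the 250 bases before the transcription start, 5′ to 3′ along the gene, from RefSeq on build GRCm38.p6. Capitals mark CCAAT on either strand, the box bound by NF-Y, a partner of SREBPs, and CACNCCAC, the core of a sterol regulatory element.
Hmgcs1, chr13:119690101-119690350, plus strand: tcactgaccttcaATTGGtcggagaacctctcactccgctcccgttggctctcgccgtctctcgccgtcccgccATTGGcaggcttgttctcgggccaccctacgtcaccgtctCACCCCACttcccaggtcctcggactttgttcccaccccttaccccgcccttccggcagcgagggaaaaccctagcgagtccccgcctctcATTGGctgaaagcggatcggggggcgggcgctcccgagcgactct
Idi1, chr13:8885356-8885605, plus strand: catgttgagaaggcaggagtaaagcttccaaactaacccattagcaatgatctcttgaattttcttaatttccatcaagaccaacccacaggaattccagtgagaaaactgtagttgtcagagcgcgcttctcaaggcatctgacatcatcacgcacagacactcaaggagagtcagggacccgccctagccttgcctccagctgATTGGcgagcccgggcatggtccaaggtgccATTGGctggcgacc
Cyp51, chr5:4104698-4104947, minus strand: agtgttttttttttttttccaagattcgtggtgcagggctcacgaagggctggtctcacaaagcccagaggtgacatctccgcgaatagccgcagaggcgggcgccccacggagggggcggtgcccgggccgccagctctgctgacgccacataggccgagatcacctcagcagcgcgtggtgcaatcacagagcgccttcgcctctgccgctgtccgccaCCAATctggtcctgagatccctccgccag
Nsdhl, chrX:72918271-72918520, plus strand: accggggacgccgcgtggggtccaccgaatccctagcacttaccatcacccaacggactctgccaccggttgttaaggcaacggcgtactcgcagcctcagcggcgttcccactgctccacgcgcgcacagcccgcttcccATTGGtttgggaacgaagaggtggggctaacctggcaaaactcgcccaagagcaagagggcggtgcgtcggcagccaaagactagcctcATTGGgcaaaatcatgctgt
Ebp, chrX:8193513-8193762, minus strand: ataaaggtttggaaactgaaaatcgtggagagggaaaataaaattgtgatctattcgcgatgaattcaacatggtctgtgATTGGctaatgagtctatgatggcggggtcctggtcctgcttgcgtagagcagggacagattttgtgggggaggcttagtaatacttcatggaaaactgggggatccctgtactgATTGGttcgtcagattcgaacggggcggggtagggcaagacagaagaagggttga
Acss2, chr2:155517793-155518042, plus strand: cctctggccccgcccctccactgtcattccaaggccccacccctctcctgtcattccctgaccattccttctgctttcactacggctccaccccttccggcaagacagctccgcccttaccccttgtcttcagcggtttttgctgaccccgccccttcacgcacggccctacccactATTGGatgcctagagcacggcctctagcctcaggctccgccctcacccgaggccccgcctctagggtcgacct
All 6 windows hold CCAAT, and its nearest copy begins 14 bases before the start in Idi1, 20 in Nsdhl, 29 in Cyp51, 45 in Hmgcs1, 55 in Ebp and 73 in Acss2. RefSeq promoters were matched for 25 of the 31 members. CCAAT lay in 14 of 18 windows of the sterol arm (14 of 15 matched genes) and in 2 of 5 windows of the fatty acid arm (Acss2 and Fasn), against 33.8% of all 32851 windows of this length. GGGCGG, the box bound by Sp1, lay in 15 of 18 windows of the sterol arm and 2 of 5 of the fatty acid arm, against 32.7% of all windows. The full element TCACNCCAC, which contains CACNCCAC, was found in Hmgcs1 alone among the matched members and in 1.05% of all windows. The core CACNCCAC was found in Hmgcs1, Acat2 and Insig1 and in 5.29% of all windows. CACGTG, an E-box that SREBPs can also bind, lay in Dhcr7, Hsd17b7, Sc5d, Insig1 and Scap and in 6.02% of all windows. Both strands were searched, and a match to the letters is not a measured binding site.

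In fl/fl sham kidneys the set spanned a wide range of levels. Per length of transcript, as CPM divided by the annotated exon length in kilobases (RPKM), Hmgcs1 was the most abundant member in fl/fl sham at 147 ± 18.2 RPKM (SD, n = 4). It was followed by Scd1 at 99.4 ± 128, Acly at 69.5 ± 14.4, Fasn at 63.3 ± 43.8 and Cyp51 at 56.6 ± 17.99 RPKM. These neighbours in the order overlap in their SD, and the spread of Scd1 exceeded its own mean. Without fl/fl sham 3 the order was Hmgcs1, Acly, Cyp51, Fasn and Scd1, at 153, 74.1, 51.7, 41.9 and 35.95 RPKM. At the other end were Tm7sf2, a sterol reductase, at 2.66 ± 0.474 RPKM and Fdps, which makes farnesyl diphosphate, at 3.33 ± 0.489 RPKM. Srebf2 and Srebf1 were close, at 21.2 ± 1.26 and 18.3 ± 3.35 RPKM, and Insig1 and Insig2 stood at 27.0 ± 9.76 and 9.85 ± 0.393 RPKM.

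IRI against sham in fl/fl kidneys asks how control kidneys changed these genes after ischaemia. Of the 31 members, 9 fell and 0 rose (29% lower), against 7.01% of all genes tested that fell, with edgeR's quasi-likelihood test and a Benjamini-Hochberg adjusted p threshold of 0.05 over all genes. Among all genes 8.46% rose. The members that fell were Hmgcs1, Idi1, Cyp51, Nsdhl, Ebp and Stard4 of the sterol arm, Acss2 and Scd2 of the fatty acid arm, and the regulator Insig1. In 29 of 31 members the log2 fold change was below 0, against 49.2% of all genes. The median was -0.58 over the 19 sterol genes, -0.87 over the 7 fatty acid genes and 0.01 over all genes tested. Without fl/fl sham 3, the median of the fatty acid arm was -0.37. In 8 members every fl/fl IRI library was below every fl/fl sham library (25.8%), against 9.82% of all genes, and in 0 members every IRI library was above every sham library, against 9.65% of all genes. Proximal tubule markers fell in 8 of 14 genes in this comparison, with a median log2 fold change of -1.28, and all 8 tubular injury markers rose, with a median of 3.94. In bulk tissue, fewer cells of a type and less RNA per cell cannot be told apart, and the part of the tubule markers in the fall of the members was not tested.

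**Figure D1:**
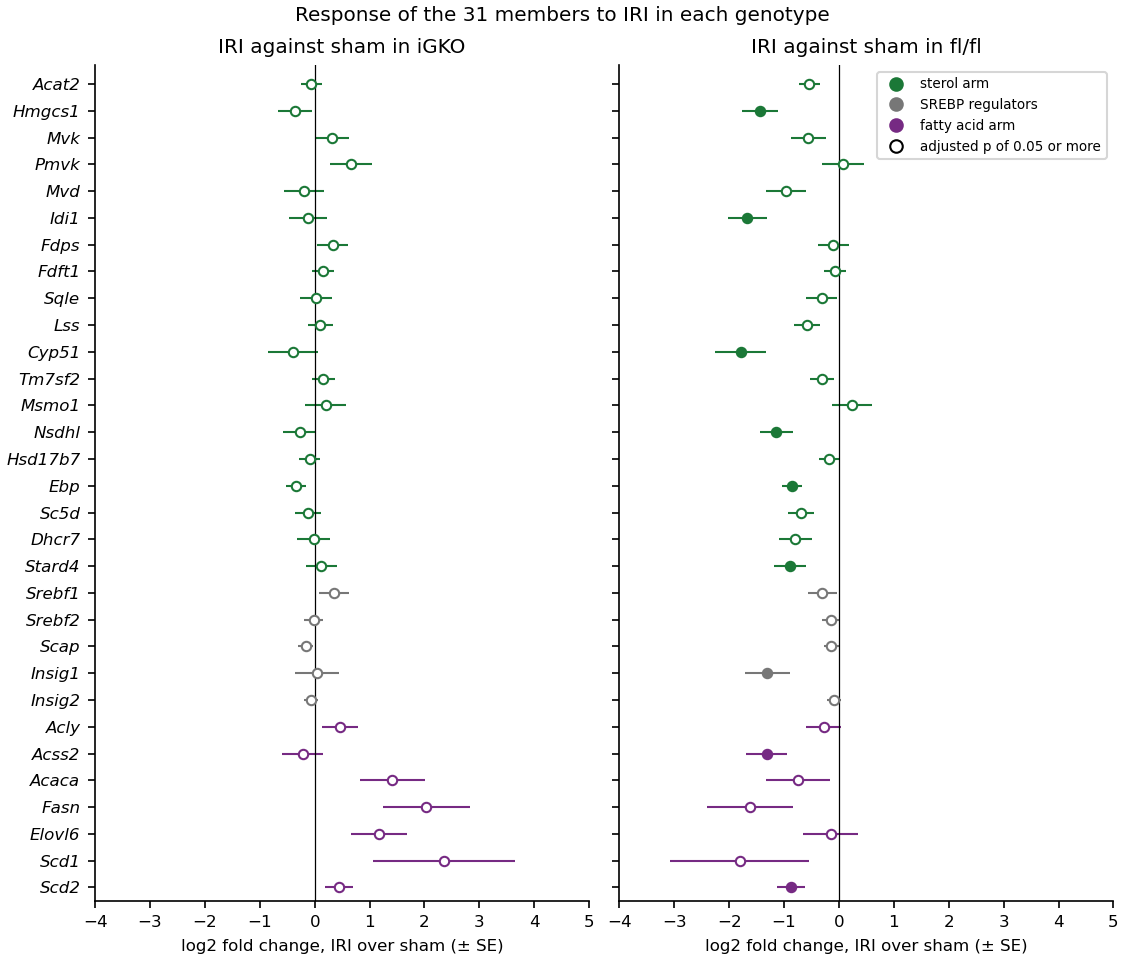
Log2 fold change of each member (points, with SE bars) for IRI over sham in iGKO kidneys (left) and fl/fl kidneys (right), from the edgeR fit to 16 libraries. Filled points passed an adjusted p of 0.05: 9 members lie below 0 and pass in fl/fl, and none passes in iGKO, where Fasn and Scd1 lie farthest to the right.

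Of the early steps, Hmgcs1 (ENSMUSG00000093930), the synthase that makes HMG-CoA, the precursor of mevalonate, was measured at 480.3, 195.8, 180.5 and 143 CPM in fl/fl IRI 1 to 4, against 792.5, 640.7, 598 and 678 CPM in fl/fl sham 1 to 4. The groups did not overlap, and fl/fl IRI 1 lay nearest to the sham libraries. Its log2 fold change was -1.44 ± 0.32 (SE), with an edgeR adjusted p of 0.00859. Idi1 (ENSMUSG00000058258), the isomerase that readies isopentenyl diphosphate for chain building, had 15.0, 8.32, 9.95 and 4.99 CPM in fl/fl IRI against 32.3, 19.4, 39.5 and 30.3 CPM in fl/fl sham. All 4 IRI values were below the lowest sham value, and the log2 fold change was -1.67 ± 0.35 with an edgeR adjusted p of 0.00652. Mvk, Pmvk and Mvd, which carry mevalonate to isopentenyl diphosphate, were not called. Their group means were 8.28, 10.5 and 25.8 CPM in fl/fl IRI, against 12.2, 9.98 and 50.4 CPM in fl/fl sham. Acat2, a thiolase that joins acetyl-CoA units, averaged 54.1 ± 14.5 CPM in fl/fl IRI and 78.5 ± 6.36 CPM in fl/fl sham (SD, n = 4 each), with an edgeR adjusted p of 0.0694.

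No gene of the squalene steps was called. Fdps, Fdft1 (squalene synthase) and Sqle (squalene epoxidase) averaged 13.1, 27.1 and 71.7 CPM in fl/fl IRI, against 14.0, 28.5 and 89.3 CPM in fl/fl sham. Lss, which closes squalene epoxide to lanosterol, averaged 25.7 ± 9.80 CPM in fl/fl IRI and 38.5 ± 5.74 CPM in fl/fl sham, with an edgeR adjusted p of 0.104.

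The steps after lanosterol held 3 of the called genes. Cyp51 (ENSMUSG00000001467), the lanosterol demethylase, was measured at 136, 30.1, 47.7 and 75.1 CPM in fl/fl IRI 1 to 4, against 221, 150.5, 315 and 313 CPM in fl/fl sham 1 to 4. No IRI value reached a sham value, and its log2 fold change of -1.79 ± 0.47 (edgeR adjusted p = 0.0180) was the lowest of the sterol arm. Nsdhl (ENSMUSG00000031349), a sterol dehydrogenase of the next demethylation, had 40.4, 24.5, 26.8 and 11.8 CPM in fl/fl IRI against 73.6, 42.7, 46.7 and 65.6 CPM in fl/fl sham. The groups came close, at 40.4 and 42.7 CPM, without overlap, and the log2 fold change was -1.14 ± 0.30 with an edgeR adjusted p of 0.0186. Ebp (ENSMUSG00000031168), the isomerase that moves the ring double bond, had 42.8, 27.4, 22.5 and 30.1 CPM in fl/fl IRI against 61.5, 46.8, 54.9 and 59.5 CPM in fl/fl sham. Its groups did not overlap either, and the log2 fold change was -0.86 ± 0.19 with an edgeR adjusted p of 0.00708. Sc5d and Dhcr7, a desaturase and a reductase of the last steps, averaged 25.6 ± 1.93 and 17.3 ± 8.80 CPM in fl/fl IRI. In fl/fl sham they averaged 41.1 ± 9.96 and 29.9 ± 4.19 CPM. Their groups did not overlap but nearly met, at 27.9 and 28.1 CPM in Sc5d and 24.20 and 24.25 CPM in Dhcr7. Both missed the threshold with edgeR adjusted p-values of 0.0622 and 0.0832. Msmo1, the C4-methyl oxidase that acts together with Nsdhl, averaged 41.3 ± 18.8 CPM in fl/fl IRI and 35.1 ± 12.0 CPM in fl/fl sham and was not called. Hsd17b7 and Tm7sf2, both sterol reductases, were not called, at 44.6 and 9.47 CPM in fl/fl IRI against 50.7 and 11.7 CPM in fl/fl sham. Stard4 (ENSMUSG00000024378), which carries cholesterol between membranes, had 128, 56.2, 51.2 and 38.1 CPM in fl/fl IRI against 126, 119.7, 109.6 and 152 CPM in fl/fl sham. Here fl/fl IRI 1 lay within the sham range and the other 3 far below it, and the log2 fold change was -0.89 ± 0.29 with an edgeR adjusted p of 0.0445.

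Among the regulators, Insig1 (ENSMUSG00000045294), itself an SREBP target that retains Scap, had 50.7, 13.4, 26.2 and 45.1 CPM in fl/fl IRI against 107, 41.2, 83.01 and 103 CPM in fl/fl sham. The groups overlapped through fl/fl sham 2, and the log2 fold change was -1.30 ± 0.41 with an edgeR adjusted p of 0.0425. Insig2, the form less dependent on SREBPs, had 31.8, 33.9, 30.7 and 32.0 CPM in fl/fl IRI against 34.5, 35.9, 32.6 and 33.9 CPM in fl/fl sham, an adjusted p of 0.662 with edgeR. Srebf2 had 171, 125.6, 124 and 133 CPM in fl/fl IRI against 161, 140.0, 152.5 and 156 CPM in fl/fl sham, and Srebf1 had 112, 61.5, 77.4 and 85.1 CPM against 115, 95.1, 81.0 and 123 CPM. Neither was called, with log2 fold changes of -0.14 ± 0.17 and -0.30 ± 0.27. Scap averaged 117 ± 11.2 CPM in fl/fl IRI and 128 ± 6.07 CPM in fl/fl sham and was not called.

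In the fatty acid arm, Acss2 (ENSMUSG00000027605), which makes acetyl-CoA from acetate, had 260.1, 105.6, 57.6 and 54.3 CPM in fl/fl IRI against 326, 301, 303 and 261 CPM in fl/fl sham. Library fl/fl IRI 1 almost reached the lowest sham value and the other 3 lay far below, and the log2 fold change was -1.32 ± 0.37 with an edgeR adjusted p of 0.0261. Scd2 (ENSMUSG00000025203), a stearoyl-CoA desaturase, had 124, 70.1, 92.3 and 54.0 CPM in fl/fl IRI against 174, 122, 131 and 194.8 CPM in fl/fl sham. The groups met at 124 and 122 CPM, and the log2 fold change was -0.87 ± 0.26 with an edgeR adjusted p of 0.0340. Fasn, fatty acid synthase, had 386, 192, 199 and 119 CPM in fl/fl IRI against 358, 607, 1394 and 412 CPM in fl/fl sham. Its log2 fold change of -1.63 ± 0.78 was not called (edgeR adjusted p = 0.169), and fl/fl sham 3 held by far the highest sham value. Scd1, the main desaturase of liver and fat, had 339, 133, 44.6 and 39.6 CPM in fl/fl IRI against 308, 66.4, 1417 and 153 CPM in fl/fl sham, with an edgeR adjusted p of 0.356. The sham libraries alone spanned a wider range than the IRI libraries. Acly, Acaca and Elovl6, which supply acetyl-CoA, carboxylate it and lengthen palmitate, averaged 302, 71.8 and 27.4 CPM in fl/fl IRI, against 367, 120.1 and 30.4 CPM in fl/fl sham, and none was called. Reads of Scd1 and Scd2, which are paralogs, and of Acat2, which has the close copy Acat3, could be split by the counting.

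**Figure D2:**
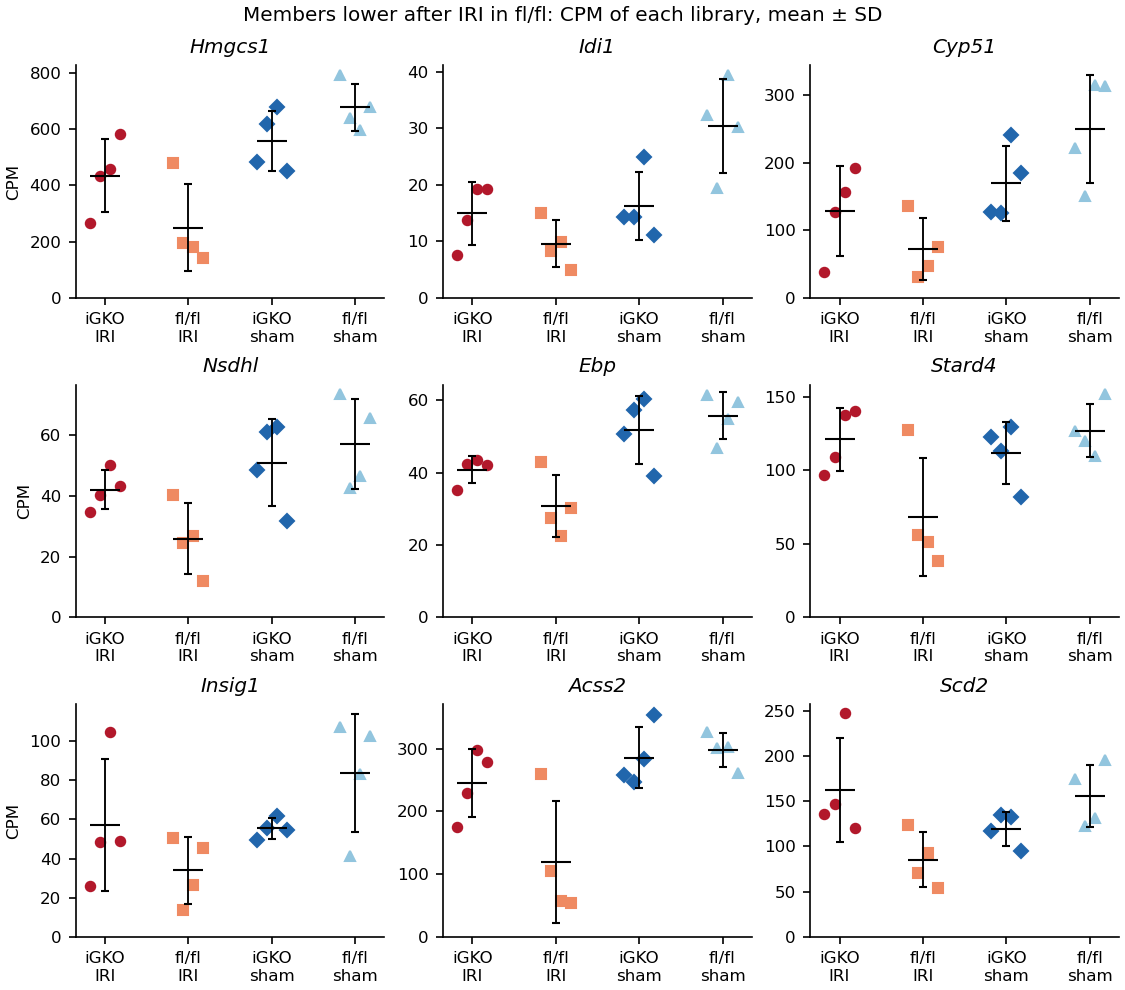
CPM of the 9 members that fell after IRI in fl/fl kidneys, in each of the 16 libraries (points), with the mean and SD of each group of 4. In all 9 panels the highest of the fl/fl IRI points is library 1, for example 480.3 CPM of Hmgcs1 against 143 to 195.8 CPM in the other 3.

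The number of members that fell depended on single libraries. It was 13 without fl/fl IRI 1 (4335 genes called in all, against 2779 with every library), 5 without fl/fl IRI 2 or 4 (2255 and 1850 genes), and 4 without fl/fl IRI 3 or any of fl/fl sham 1, 3 and 4 (1452 to 1691 genes). Without both iGKO IRI 3 and fl/fl sham 3, the libraries with the most adipocyte RNA, 5 members fell (Ebp, Hmgcs1, Idi1, Nsdhl and Scd2). With the adipocyte marker level as a term of the model 5 fell (Acss2, Cyp51, Ebp, Hmgcs1 and Idi1). All genes called also dropped, to 1137 and 1460. Hmgcs1, Idi1 and Ebp were called under each of the 26 alternatives run, with adjusted p-values of at most 0.0373, 0.0315 and 0.0314. Stard4 lost its call in 17 of them and Insig1 in 13.

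IRI against sham in iGKO kidneys asks the same of kidneys from mice with the Degs1 deletion, in which Degs1 RNA was lower but still present. With edgeR 0 of the 31 members were called, as were 0% of all genes tested. At an unadjusted p under 0.05 there were 3 members (9.68%), Fasn, Acaca and Elovl6, against 6.37% of all genes. DESeq2 and limma-voom called 43 and 550 genes and no member. Log2 fold changes were below 0 in 14 members and above 0 in 17. The sterol arm had a median of -0.02 and the fatty acid arm a median of 1.17, against -0.02 over all genes. The fatty acid median was -0.14 without iGKO IRI 3. In this comparison 0 of 8 tubular injury markers were called, with a median log2 fold change of 0.67 and 1 below 0. Of 14 proximal tubule markers 0 were called, all 14 lay below 0, and the median was -0.48. Havcr1 overlapped, at 28.0 to 122 CPM in iGKO IRI and 13.2 to 125.6 CPM in iGKO sham. The part of injury severity in the response of the members was not tested.

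In all 31 members the levels of iGKO IRI and iGKO sham overlapped, while 2.76% of all genes were lower and 2.24% higher without overlap. Hmgcs1 had 267, 433, 458 and 583 CPM in iGKO IRI 1 to 4, against 485, 619, 678 and 451 CPM in iGKO sham 1 to 4, a log2 fold change of -0.36 ± 0.31. Idi1 had 7.57, 13.8, 19.2 and 19.3 CPM in iGKO IRI against 14.3, 14.4, 25.0 and 11.2 CPM in iGKO sham, a log2 fold change of -0.11 ± 0.34. Cyp51 had 37.7, 127, 156 and 193 CPM in iGKO IRI against 127, 125, 241 and 184 CPM in iGKO sham. Library iGKO IRI 1 was the lowest of its group in all 3 genes. Ebp had 35.3, 42.4, 43.5 and 42.1 CPM in iGKO IRI against 50.5, 57.2, 60.4 and 39.1 CPM in iGKO sham, with iGKO sham 4 as the only sham library within the IRI range. Its log2 fold change was -0.35 ± 0.18, with an edgeR adjusted p of 0.835. Nsdhl had 34.6, 40.5, 50.1 and 43.2 CPM in iGKO IRI against 48.4, 61.1, 62.6 and 31.7 CPM in iGKO sham, and Stard4 had 97.0, 109, 138 and 140.5 CPM against 123, 113, 129 and 81.5 CPM. In both genes iGKO sham 4 was the lowest of the 4 sham libraries. Without iGKO sham 4, 0 members were called, and the log2 fold changes of Mvd, Dhcr7 and Srebf2 turned from below to above 0.

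The regulators Insig1 and Srebf1 had 26.0, 48.3, 104.9 and 49.1 CPM and 90.9, 97.8, 189.9 and 137 CPM in iGKO IRI, against 49.2, 55.6, 61.9 and 54.8 CPM and 84.4, 78.3, 80.2 and 162 CPM in iGKO sham. In both, iGKO IRI 3 was the highest IRI library. Srebf2 had 135, 145, 178 and 174 CPM in iGKO IRI against 130.4, 147, 145 and 219 CPM in iGKO sham. Insig2 had 31.55, 32.3, 31.7 and 31.01 CPM in iGKO IRI against 35.9, 33.1, 38.1 and 25.2 CPM in iGKO sham. None of the 4 was called, and their log2 fold changes lay between -0.06 and 0.35. Over the 26 alternatives that of Srebf1 ranged from 0.10 to 0.72.

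The fatty acid genes of iGKO IRI were split by 1 library. Fasn had 319.6, 305 and 344 CPM in iGKO IRI 1, 2 and 4 and 5321 CPM in iGKO IRI 3, against 297, 427, 411 and 406 CPM in iGKO sham 1 to 4. Scd1 had 14.3, 191 and 127 CPM in iGKO IRI 1, 2 and 4 and 2680 CPM in iGKO IRI 3, against 100.2, 31.9, 411 and 45.0 CPM in iGKO sham. Library iGKO IRI 3 thus exceeded the median of the other 3 by a factor of 16.7 in Fasn and 21.2 in Scd1. The factor was 8.08 in Acaca, 5.88 in Elovl6 and 3.41 in Acly. It was 1.29 in Acss2 and 1.82 in Scd2, with 175, 230.1, 298 and 279 CPM of Acss2 in iGKO IRI against 259, 247, 283 and 354 CPM in iGKO sham, and 136, 147, 247 and 120.5 CPM of Scd2 against 116, 134, 132 and 94.3 CPM. Over the sterol arm the median factor was 1.33, from 0.969 in Hsd17b7 to 2.55 in Fdps and 2.89 in Pmvk. The fitted log2 fold change of Fasn was 2.03 ± 0.79 with an edgeR adjusted p of 0.689. It was -0.26 without iGKO IRI 3, and that of Acaca, 1.41 ± 0.59, was -0.05 without it.

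Adipocyte markers moved with the same library. Their sum was 31.8, 219.5, 1546 and 74.1 CPM in iGKO IRI 1 to 4, 193, 111, 20.2 and 57.7 CPM in fl/fl IRI, 132, 39.5, 181 and 42.2 CPM in iGKO sham, and 258, 39.2, 872 and 186 CPM in fl/fl sham. All 9 tested markers of the 10 had a log2 fold change above 0 for IRI in iGKO and below 0 for IRI in fl/fl. Ucp1, the uncoupling protein of brown fat, was at 284 CPM in iGKO IRI 3 and 279.9 CPM in fl/fl sham 3, against 27.6 CPM in fl/fl IRI 1 and at most 2.64 CPM in each of the others. Adipoq, the adipokine adiponectin, had no read in iGKO IRI 1, fl/fl IRI 3 and fl/fl IRI 4. Library fl/fl sham 3 exceeded the median of the other fl/fl sham libraries by a factor of 9.24 in Scd1, 3.38 in Fasn, 2.57 in Elovl6 and 2.57 in Acaca, while the median factor over the sterol arm was 0.888. The part of adipocyte RNA in the values of the fatty acid arm was not tested. Without both libraries, the median log2 fold change of the fatty acid arm was -0.14 for IRI in iGKO, and it was 0.30 with the adipocyte marker level as a term.

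**Figure D3:**
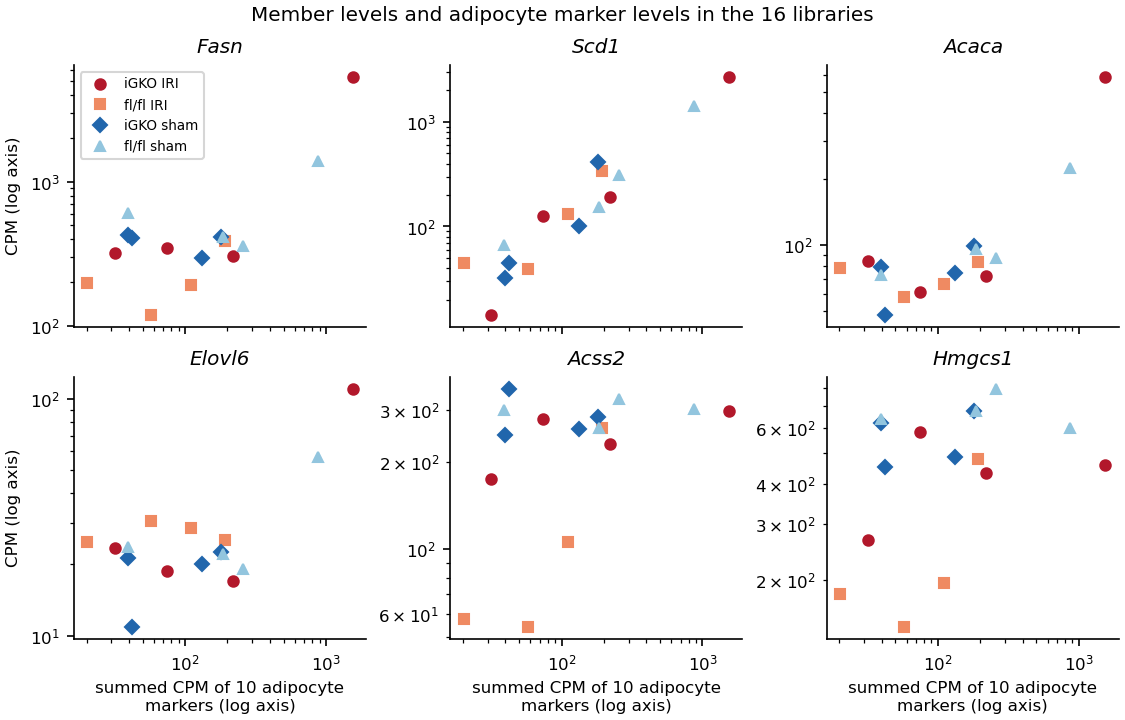
CPM of 4 fatty acid genes, Acss2 and Hmgcs1 (vertical, log axes) against the summed CPM of the 10 adipocyte markers (horizontal, log axes) in the 16 libraries, coloured by group. Scd1 is high where the adipocyte sum is high over the whole range, Fasn, Acaca and Elovl6 stand out in the libraries at 1546 and 872 CPM, and Acss2 and Hmgcs1 do not stand out there.

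iGKO against fl/fl after IRI asks whether injured kidneys differed by genotype. With edgeR 0 of the 31 members were called in either direction, against 0.851% of all genes (0.178% higher and 0.673% lower). DESeq2 called 2 members higher, Acat2 and Scd2, among 911 genes called in all, and limma-voom called 10 members among 1461 genes. An unadjusted p under 0.05 was reached by 14 members (45.2%), all of them higher in iGKO, against 19.1% of all genes. In 28 of 31 members the log2 fold change was above 0, with medians of 0.65 in the sterol arm, 1.04 in the fatty acid arm and -0.01 over all genes. In the same comparison 12 of 14 proximal tubule markers lay above 0, with a median log2 fold change of 0.72 and none called, and 5 of 8 tubular injury markers fell, with a median of -2.22, and the part of these in the members' values was not tested. The smallest adjusted p was 0.0876, for Scd2, at 163 ± 57.5 CPM in iGKO IRI and 85.1 ± 30.3 CPM in fl/fl IRI (SD, n = 4 each). Mvk, mevalonate kinase, was the only member without overlap, at 12.1 to 18.9 CPM in iGKO IRI and 4.11 to 11.7 CPM in fl/fl IRI, where 2.48% of all genes were higher and 3.04% lower in iGKO without overlap. Its log2 fold change was 0.85 ± 0.31 with an edgeR adjusted p of 0.168.

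Other members had wide spreads. Acat2 averaged 85.5 ± 17.8 CPM in iGKO IRI and 54.1 ± 14.5 CPM in fl/fl IRI, a log2 fold change of 0.66 ± 0.19 (edgeR adjusted p = 0.0963). Lss averaged 42.4 ± 11.7 CPM in iGKO IRI and 25.7 ± 9.80 CPM in fl/fl IRI. Stard4 averaged 121 ± 21.4 CPM in iGKO IRI and 68.3 ± 40.3 CPM in fl/fl IRI, where fl/fl IRI 1, at 128 CPM, lay among the iGKO values. Acss2 averaged 245 ± 55.0 CPM in iGKO IRI and 119 ± 96.7 CPM in fl/fl IRI. Fdft1 and Sc5d stood at 27.4 and 27.4 CPM in iGKO IRI against 27.1 and 25.6 CPM in fl/fl IRI. The 3 members below 0 were Msmo1, Hsd17b7 and Insig2, at 29.3, 43.5 and 31.6 CPM in iGKO IRI against 41.3, 44.6 and 32.1 CPM in fl/fl IRI, with log2 fold changes of -0.49, -0.04 and -0.02.

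These results turned on fl/fl IRI 1. Without it, 11 members were higher in iGKO IRI than in fl/fl IRI: Acat2, Acss2, Ebp, Fasn, Hmgcs1, Lss, Mvd, Mvk, Nsdhl, Scd2 and Stard4, while the number of all genes called was 2495 in place of 153. Over the 19 sterol genes, fl/fl IRI 1 exceeded the median of the other fl/fl IRI libraries by a median factor of 1.59, with 3.22 in Mvd, 2.85 in Cyp51 and 2.66 in Hmgcs1. Without iGKO IRI 3, 0 members and 0 of all genes were called, and the median of the fatty acid arm was 0.02. The counts were also 0 and 0 without iGKO IRI 1, iGKO IRI 2, fl/fl IRI 3, fl/fl IRI 4 or fl/fl sham 4.

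iGKO against fl/fl after sham asks whether the deletion changed these genes without injury. With edgeR 0 members were called, as were 0% of all genes. The targeted gene Degs1 was thus not called either, at a log2 fold change of -0.815, although its groups did not overlap. Only Idi1 reached an unadjusted p under 0.05 (3.23% of members, against 1.17% of all genes), and DESeq2 and limma-voom called 0 members and 0 and 2 of all genes. Idi1 had 14.3, 14.4, 25.0 and 11.2 CPM in iGKO sham against 32.3, 19.4, 39.5 and 30.3 CPM in fl/fl sham, a log2 fold change of -0.90 ± 0.35. The groups overlapped through iGKO sham 3, as they did in all other members, while 0.874% of all genes were lower and 1.05% higher without overlap. The median log2 fold change was -0.13 in the sterol arm and -0.67 in the fatty acid arm, and the median of the fatty acid arm was -0.25 without fl/fl sham 3. Hmgcs1 averaged 558 ± 108 CPM in iGKO sham and 677 ± 83.5 CPM in fl/fl sham. Fasn averaged 385 ± 59.5 CPM in iGKO sham and 693 ± 479 CPM in fl/fl sham, where the mean was 459 ± 131 CPM without fl/fl sham 3 (SD, n = 3).

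The interaction of genotype and operation, taken as the log2 response to IRI in iGKO minus that in fl/fl, tests whether the responses differed. With edgeR 0 members were called, as were 0% of all genes. At an unadjusted p under 0.05 there were 10 members (32.3%), Hmgcs1, Idi1, Cyp51, Stard4, Insig1, Acss2, Acaca, Fasn, Scd1 and Scd2, against 11.3% of all genes, and all 10 were above 0. DESeq2 called 0 members and 101 genes, and limma-voom called 11 members and 1163 genes. Idi1 had an interaction of 1.55 ± 0.49 (edgeR adjusted p = 0.289) and Scd2 one of 1.32 ± 0.37 (edgeR adjusted p = 0.265). The interaction of Fasn was 3.66 ± 1.11 (edgeR adjusted p = 0.273), and it was 0.78 without both iGKO IRI 3 and fl/fl sham 3. The interaction of Scd1, 4.16 ± 1.81, was -0.07 without them and -0.44 with the adipocyte marker level as a term. Without fl/fl IRI 1, 776 of all genes were called, and 5 of them were members, all above 0: Acss2, Hmgcs1, Idi1, Scd2 and Stard4. The comparisons share control libraries, so their values are given side by side and not as independent support.

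The level of an arm in a library was taken as the mean log2 CPM of its genes minus the mean of the fl/fl sham libraries, and it carries no test. The sterol arm averaged -0.20 ± 0.38 in iGKO IRI, -0.74 ± 0.40 in fl/fl IRI, -0.19 ± 0.17 in iGKO sham and 0 ± 0.21 in fl/fl sham (SD, n = 4 each). In fl/fl IRI it was -0.15 in library 1 and -1.04 to -0.87 in libraries 2 to 4. In iGKO IRI it was -0.69, -0.34, 0.12 and 0.09 in libraries 1 to 4. The fatty acid arm averaged -0.05 ± 1.28 in iGKO IRI, -0.91 ± 0.50 in fl/fl IRI, -0.57 ± 0.34 in iGKO sham and 0 ± 0.51 in fl/fl sham. Library iGKO IRI 3 stood at 1.85 and the other iGKO IRI libraries at -0.94 to -0.51, and fl/fl sham 3 stood at 0.76.

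The difference between arms within a library, sterol minus fatty acid, does not depend on the scaling of that library. It was 0.25, 0.17, -1.73 and 0.69 in iGKO IRI 1 to 4, between 0.00 and 0.35 in fl/fl IRI, between 0.14 and 0.72 in iGKO sham, and 0.32, 0.08, -0.75 and 0.35 in fl/fl sham 1 to 4. The values of fl/fl IRI thus lay within the range of the other groups, and both libraries at -0.75 or lower were those with the most adipocyte marker RNA.

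**Figure D4:**
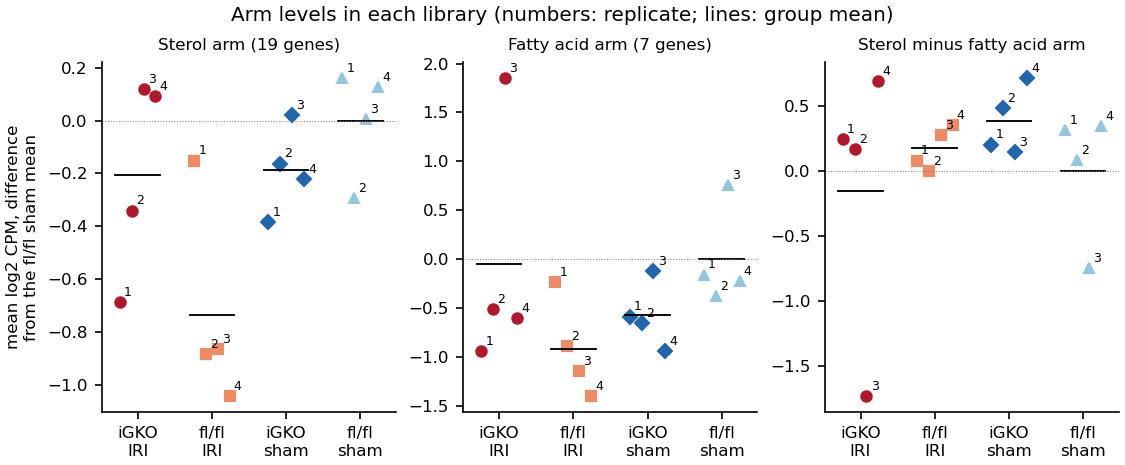
Level of the sterol arm, of the fatty acid arm and of their difference in each library (points, with replicate numbers), in mean log2 CPM relative to the fl/fl sham mean, with lines at the group means. In the sterol arm fl/fl IRI 2 to 4 lie below all other libraries, at -1.04 to -0.87, and in the fatty acid arm iGKO IRI 3 lies above all others, at 1.85.

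Injury marker RNA was read beside the sterol arm in the IRI libraries. Havcr1 was at 84.0, 104, 28.0 and 122 CPM in iGKO IRI 1 to 4 and at 100.6, 1325, 1666 and 710.3 CPM in fl/fl IRI 1 to 4. The 3 libraries with the highest Havcr1, fl/fl IRI 2 to 4, had the 3 lowest sterol arm levels of all 16. In the others, Havcr1 and the sterol arm did not follow one order, since iGKO IRI 1, at 84.0 CPM, had a sterol arm level of -0.69, and iGKO IRI 4, at 122 CPM, one of 0.09. The part of injury severity in the difference between genotypes was not tested.

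**Figure D5:**
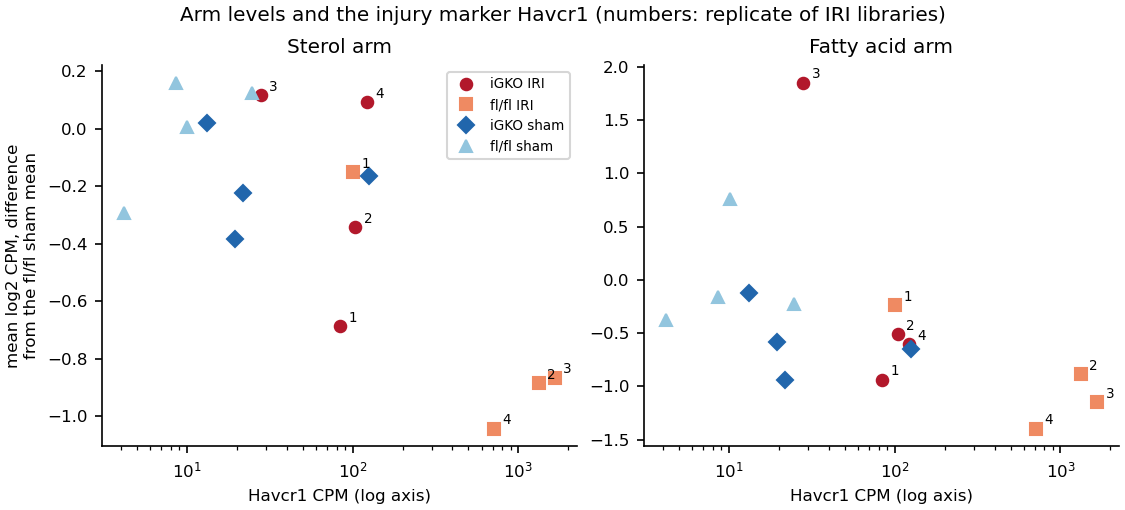
Arm level (vertical, mean log2 CPM relative to the fl/fl sham mean) against Havcr1 CPM (horizontal, log axis) in the 16 libraries, for the sterol arm (left) and the fatty acid arm (right). The 3 fl/fl IRI libraries with Havcr1 at 710.3 to 1666 CPM sit at the lower right of both panels, apart from fl/fl IRI 1 at 100.6 CPM.

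Genes around the pathway were read from lists chosen with the set. For IRI against sham in fl/fl, 5 of 17 other genes of fatty acid synthesis and lipid assembly fell and 0 rose, with a median log2 fold change of -0.69. Over all genes tested in this comparison, 7.01% fell and 8.46% rose, with a median of 0.01, the background for this and the following lists. The 5 genes that fell were Tecr, Fads1, Fads2, Aacs and Acsl3. Tecr closes the elongation cycle, and the desaturases Fads1 and Fads2 make polyunsaturated fatty acids. Aacs activates acetoacetate for lipid synthesis, and Acsl3 is an acyl-CoA synthetase. Fads2 had 131, 53.7, 37.7 and 40.3 CPM in fl/fl IRI 1 to 4 against 173, 167, 168 and 197 CPM in fl/fl sham 1 to 4, a log2 fold change of -1.42 ± 0.29 with an edgeR adjusted p of 0.00570. Its groups did not overlap, and fl/fl IRI 1 again lay nearest to sham. Aacs averaged 108 ± 64.1 CPM in fl/fl IRI and 267 ± 80.6 CPM in fl/fl sham.

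Of 6 genes of the isoprenoid branch, which uses mevalonate products for dolichol, ubiquinone and prenyl groups, 0 were called (2 at an unadjusted p under 0.05, which 30.7% of all genes reached), with a median of -0.17. Of 8 genes of SREBP cleavage and sterol-regulated degradation, 1 fell and 0 rose, and in 3 every fl/fl IRI library lay below every fl/fl sham library, against 9.82% of all genes. The protease genes that release SREBPs were not called. Of them Mbtps1 averaged 97.4 ± 1.81 CPM in fl/fl IRI and 111 ± 8.55 CPM in fl/fl sham without overlap (edgeR adjusted p = 0.234), and Mbtps2 averaged 31.6 ± 7.76 CPM in fl/fl IRI and 24.0 ± 2.46 CPM in fl/fl sham.

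Of 13 genes of sterol efflux, storage and oxysterols, 2 rose and 2 fell in fl/fl, against 8.46% and 7.01% of all genes. Ch25h, which makes 25-hydroxycholesterol, an inhibitor of SREBP processing, averaged 7.02 ± 4.92 CPM in fl/fl IRI and 0.666 ± 0.319 CPM in fl/fl sham, a log2 fold change of 3.396 ± 0.54 with an edgeR adjusted p of 0.00139. Its 4 libraries had 2.87, 3.72, 7.83 and 13.7 CPM in fl/fl IRI against 1.11, 0.648, 0.349 and 0.559 CPM in fl/fl sham, without overlap. Soat2, which esterifies cholesterol for storage, rose to 2.66 ± 0.978 CPM in fl/fl IRI, against 0.595 ± 0.150 CPM in fl/fl sham. The fl/fl sham values of both genes rest on few reads, 14, 10, 5 and 8 of Ch25h and 7, 12, 6 and 9 of Soat2. Cyp7b1 and Cyp27a1, hydroxylases of oxysterols and of cholesterol, fell by 2.80 ± 0.68 and 0.84 ± 0.20 on the log2 scale. In the other 4 contrasts 0 of the 44 genes of these 4 lists were called with edgeR. At an unadjusted p under 0.05 there were 8 for IRI in iGKO, 15 for iGKO against fl/fl after IRI, 0 after sham and 10 for the interaction, where 6.37%, 19.1%, 1.17% and 11.3% of all genes reached it. In the same order, DESeq2 called 0, 3, 0 and 0 of the 44 (43, 911, 0 and 101 of all genes), and limma-voom called 2, 11, 0 and 7 (550, 1461, 2 and 1163 of all genes). For IRI in iGKO, Abcg1, a sterol exporter and target of the oxysterol receptors, averaged 25.5 ± 8.12 CPM in iGKO IRI and 13.8 ± 2.13 CPM in iGKO sham without overlap, but its edgeR adjusted p was 0.629.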

How the data were processed

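RNA of kidney cortex was sequenced in 16 libraries, as stranded libraries made after removal of ribosomal RNA, per the labels' protocols. The authors deposited raw counts, whole numbers of reads per gene with no normalization, for 56980 Ensembl identifiers. Per the submitters' processing notes, cutadapt 1.16, STAR 2.7.9a, featureCounts 1.6.3 and DESeq2 1.36.0 were used and the build was GRCm39. The annotation release, the strand setting and the handling of reads that match several genes are not stated in these notes or labels. Identifiers were matched to symbols through a mouse gene name table, which named 52073 of them, and gene lengths for RPKM were exon unions of GENCODE M21, an older release.

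Testing used edgeR 4.0.16 under R 4.3.3 (filterByExpr by group, TMM scaling, quasi-likelihood F test, 1 coefficient per group over all 16 libraries, so that all 4 groups share 1 estimate of the spread). Adjusted p-values are two-sided and Benjamini-Hochberg adjusted over 17972 genes, with a threshold of 0.05, and a gene past it is said to be called, to rise or to fall. Standard errors (SE) were computed as the absolute log2 fold change over the square root of F. Arm levels used log2 CPM with a prior count of 2. The smallest p that an exact permutation of 4 against 4 samples allows is 0.0286. Total counts of 12704273 to 18816343 set the precision, and counts of members with few reads vary more.

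The members and gene lists were chosen with earlier results of these data known. Values in every library are given for members called in any of the 5 contrasts and for Srebf1, Srebf2, Insig1, Insig2, Fasn, Scd1 and Scd2, and up to 4 genes of smallest p per contrast are named in the other lists, apart from 1 gene that is not reported here; Acsl3 and Mbtps2 lie outside this rule and were named after their values were seen. Alternatives were RLE scaling, DESeq2 1.42.0, limma-voom with sample quality weights (limma 3.58.1), other filters, compared groups fitted alone, a replicate block and left-out libraries. All libraries carry 1 batch label, so no batch was compared.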

Additional observations from a re-analysis of the deposited data

Results flagged for a closer look

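In each group of 4 libraries, the highest and lowest value was set against the other 3 by Dixon's test at the 95% level, for each member and each arm level. Of 132 such checks 13 stood apart, and chance alone sets apart about 1 in 20 of independent checks. These checks are not independent, since an arm level averages its members and members can move together in a library. The count therefore does not measure an excess over chance. Library iGKO IRI 3 stood apart as high in Fasn (5321 CPM, against 305 to 344 CPM in the other 3), Scd1 (2680 CPM, against 14.3 to 191 CPM), Acaca (583.8 CPM, against 61.0 to 85.0 CPM), Elovl6 (110.1 CPM, against 17.1 to 23.5 CPM) and the fatty acid arm level (1.85, against -0.94 to -0.51). Library fl/fl sham 3 stood apart as high in Acaca (224.3 CPM, against 72.9 to 96.0 CPM) and Elovl6 (56.7 CPM, against 19.2 to 23.6 CPM). These are the libraries with the most adipocyte marker RNA, at 1546 and 872 CPM, and the part of that RNA in these values was not tested.

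Library fl/fl IRI 1 stood apart as high in Hmgcs1 (480.3 CPM, against 143 to 195.8 CPM) and Tm7sf2 (12.3 CPM, against 8.38 to 8.79 CPM). Its Havcr1 level was 100.6 CPM, against 710.3 to 1666 CPM in fl/fl IRI 2 to 4. Further single values stood apart: Tm7sf2 was high in fl/fl sham 1 (14.8 CPM, against 10.5 to 10.8 CPM), Ebp was low in iGKO IRI 1 (35.3 CPM, against 42.1 to 43.5 CPM), Srebf1 was high in iGKO sham 4 (161.6 CPM, against 78.3 to 84.4 CPM), and Fasn was low in iGKO sham 1 (297 CPM, against 406 to 427 CPM).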

How the results depend on the processing

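For IRI against sham in fl/fl, the main fit called 9 members and 2779 genes in all. With RLE scaling, no filter on low counts and the replicate block, 9 members fell (2818, 2474 and 2495 genes in all). There were 10 with a filter of 5 CPM in 4 libraries (2510 genes), 12 with DESeq2 (3702 genes) and 15 with limma-voom (4593 genes). With the compared groups fitted alone 4 members fell (1526 genes). Leaving out each library gave 4 to 13 members and 1452 to 4335 genes, with arm medians of -0.77 to -0.50 (sterol) and -1.11 to -0.37 (fatty acid). Without both fl/fl IRI 1 and iGKO sham 4 there were 14 members and 5508 genes. A pair of alternatives was chosen after seeing the data: without both iGKO IRI 3 and fl/fl sham 3, 5 members and 1137 genes, and with the adipocyte marker level as a term, 5 members, 1460 genes and a fatty acid median of -0.17. For IRI in iGKO no setting called a member; all genes called numbered 43 with DESeq2, 550 with limma-voom, 4 with no filter and 0 to 1 with a library left out. The sterol median then ranged from -0.08 to 0.10 and the fatty acid median from -0.14 (without iGKO IRI 3) to 1.44, and the fatty acid median was -0.14 without the libraries rich in adipocyte RNA and 0.30 with the adipocyte term. Acaca ranged from -0.051 (without iGKO IRI 3) to 1.71 and Fasn from -0.26 (without iGKO IRI 3) to 2.37 with a library left out, and they were -0.051 and -0.25 without both libraries. For iGKO against fl/fl after IRI, DESeq2 called 2 members and 911 genes, limma-voom 10 and 1461, no filter 1 and 352, the filter of 5 CPM 92 genes, and the groups alone, the replicate block, the libraries rich in adipocyte RNA left out and the adipocyte term 0 genes. Left-out libraries gave 0 to 11 members, 0 to 2495 genes, sterol medians of 0.43 to 0.85 and fatty acid medians of 0.019 to 1.57; without both fl/fl IRI 1 and iGKO sham 4 there were 12 members and 3816 genes, and without both libraries rich in adipocyte RNA the fatty acid median was 0.020. The targeted gene Degs1 missed the threshold after IRI with the groups alone (-1.02, adjusted p = 0.317), the replicate block (-1.04, 0.0544), without both libraries rich in adipocyte RNA (-0.96, 0.179), with the adipocyte term (-1.03, 0.103) and with some libraries left out (-1.15 to -0.96, 0.00105 to 0.133). After sham, left-out libraries gave 0 genes, Degs1 values of -0.95 to -0.68, sterol medians of -0.18 to -0.05 and fatty acid medians of -0.80 to -0.25; limma-voom called 2 genes, and the fatty acid median was -0.11 with the adipocyte term. For the interaction, limma-voom called 11 members and 1163 genes (sterol median 0.88), DESeq2 101 genes, no filter 15 and the replicate block 1. Left-out libraries gave 0 to 5 members, 0 to 776 genes, sterol medians of 0.48 to 0.79 and fatty acid medians of 0.99 to 1.82. Without both fl/fl IRI 1 and iGKO sham 4 there were 9 members, 1489 genes and a sterol median of 0.99. The fatty acid interaction was 0.24 without both libraries rich in adipocyte RNA, 0.47 with the adipocyte term and 2.07 as a mean, and Scd1 turned to -0.070 and -0.44 under the first and second. Unless a value above shows it, the cause was not tested. Whether the replicate numbers pair the libraries was not settled. Of 24 same-numbered pairs 6 had a correlation of deviations over 0.1 (median 0.015), and 7 of 16 libraries correlated best with their own number. The replicate block left the member count in fl/fl at 9. For iGKO against fl/fl after IRI it took all genes called from 153 to 0. Members with few reads, such as Idi1, Mvk, Pmvk and Tm7sf2, are limited by depth more than Fasn or Hmgcs1.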
